A study of Mus musculus with 6 samples.

Results

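A set of 10 classical mast cell genes was followed in RNA sequencing of astrocytes sorted from mouse brain: the chymase genes Mcpt4 and Cma1, the carboxypeptidase gene Cpa3, the tryptase genes Tpsb2 and Tpsab1, the related protease gene Prss34, the receptor genes Kit, Fcer1a and Ms4a2, and Hdc. They were chosen by gene symbol and make up 10 of the 45777 genes listed, and all 10 had counts in every sample. The choice was made with the STZ and vehicle values of these libraries already known, so their differences between the groups are given as a description; calls from the fits over all genes are given beside the share of all genes called, and support nothing here. The 6 protease genes together had a normalised level of 11.8 ± 5.86 CPM (read counts scaled to a common library total; SD, n = 3) in vehicle samples and 76.3 ± 27.7 CPM (SD, n = 3) in STZ samples, a 6.46-fold difference. Hdc, Kit, Fcer1a and Ms4a2 were also higher on average in STZ samples, by 1.67-fold to 4.65-fold.

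The study asked how hyperglycemia alters astrocytes. Male mice on a C57BL/6 background carried Aldh1l1cre/ERT2, a tamoxifen-inducible Cre under the promoter of the astrocyte gene Aldh1l1, with Rosa26-tdTomato fl/fl, a red fluorescent reporter, and all received tamoxifen (75 mg/kg for 5 days) before treatment; the sample labels give the genotype as WT. At 8 weeks of age, mice received either streptozotocin (STZ, 150 mg/kg), a toxin of pancreatic beta cells, or citrate buffer (vehicle), and STZ mice with high blood glucose 5 days later were kept. Brains were dissociated, debris and red blood cells were removed, tdTomato-positive cells were sorted, and the cells of 3 brains were pooled for each of 3 vehicle and 3 STZ samples, so each sample is a pool and not 1 animal. The interval between injection and collection is not given in the methods text, and perfusion and removal of meninges are described for flow cytometry but not for these samples.

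Mast cells are tissue-resident immune cells that lie along vessels and, in the brain, mainly in the meninges, choroid plexus and thalamus. They store histamine and proteases in granules on the proteoglycan serglycin, and release them when IgE bound to its high-affinity receptor is crosslinked by antigen. In mice, connective tissue mast cells hold the proteases encoded by Mcpt4, Cma1, Cpa3 and Tpsb2, mucosal mast cells express Mcpt1 and Mcpt2, and basophils share the IgE receptor and some granule proteases, Prss34 among them.

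Total counts ranged from 52529048 to 58749115 per sample, and 3 counts corresponded to 0.0511 to 0.0571 CPM; such limits and the intervals below cover counting error only. The astrocyte label was checked on length-corrected levels (FPKM, fragments per kilobase of transcript scaled to depth): the astrocyte genes Aldh1l1, Aqp4, Slc1a2, Slc1a3, Gja1 and Gfap averaged 142.7, 208.5, 218.5, 1381.5, 1566.7 and 25.2 in vehicle samples and 127.1, 155.5, 209.8, 1341.1, 1365.6 and 26.3 in STZ samples. For Aldh1l1, Aqp4 and Slc1a2 all STZ samples lay below all vehicle samples in CPM, an order seen for 9.85% of all genes. Neither edgeR nor DESeq2 called any of the 6 (2 had an unadjusted p below 0.05 in edgeR, beside 11.3% of all genes). Aqp4 had an adjusted p of 0.0169 by DESeq2 and was not called because its fold change was under 1.5 (log2 fold change -0.48). The choroid plexus gene Ttr was above all of them, with a mean FPKM of 9464.6 in vehicle and 8838.9 in STZ samples. Compared on the same scale, the mast cell genes were minor transcripts. In STZ samples the highest mean FPKM was that of Tpsb2 (20.9 ± 5.59), followed by Hdc (16.9 ± 3.28), Cma1 (15.04 ± 6.25), Cpa3 (11.6 ± 5.65) and Mcpt4 (11.01 ± 4.32), and each neighbouring pair in this order differed by less than the SD of either gene except Tpsb2 and Hdc, whose gap of mean FPKM was below the SD of Tpsb2 only. Prss34 (4.17 ± 3.63), Fcer1a (1.66 ± 1.16), Tpsab1 (1.5 ± 0.512), Kit (0.45 ± 0.155) and Ms4a2 (0.264 ± 0.108) were lower. In vehicle samples Hdc led with 9.66 ± 4.97 FPKM, Tpsb2 had 4.04 ± 1.56, and the other 8 genes averaged between 0.0646 and 1.47 FPKM.

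The stretches of 250 bases before the start of the chymase, carboxypeptidase and Prss34 genes are shown because Mcpt4, Cma1 and Cpa3 had the largest STZ to vehicle fold changes of the 10 genes, and Prss34 a sample pattern of its own. The sequences are those of RefSeq on GRCm38.p6, the assembly also known as mm10, written 5′ to 3′ along the gene. Distances are counted from the start in the RefSeq promoter entries. For Cpa3, Fcer1a, Ms4a2 and Hdc this start lies inside the gene coordinates given below, which come from a RefSeq gene annotation. The window of Cpa3 thus overlaps the end of its gene as given below. Capitals mark the letters GATAA, the core bound by GATA factors such as GATA2 and GATA1 of mast cells, or TTATC where it lies on the opposite strand.
Mcpt4, minus strand, chr14:56062311-56062560: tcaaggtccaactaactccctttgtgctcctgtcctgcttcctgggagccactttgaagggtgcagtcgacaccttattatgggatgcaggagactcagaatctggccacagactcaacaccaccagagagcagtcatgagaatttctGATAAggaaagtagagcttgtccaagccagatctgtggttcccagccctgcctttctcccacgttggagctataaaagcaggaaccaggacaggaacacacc
Cma1, minus strand, chr14:55944676-55944925: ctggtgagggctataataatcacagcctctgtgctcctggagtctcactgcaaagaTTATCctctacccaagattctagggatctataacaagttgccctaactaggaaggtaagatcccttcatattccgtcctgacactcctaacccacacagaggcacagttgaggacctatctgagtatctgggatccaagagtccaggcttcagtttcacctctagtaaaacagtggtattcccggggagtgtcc
Cpa3, minus strand, chr3:20242182-20242431: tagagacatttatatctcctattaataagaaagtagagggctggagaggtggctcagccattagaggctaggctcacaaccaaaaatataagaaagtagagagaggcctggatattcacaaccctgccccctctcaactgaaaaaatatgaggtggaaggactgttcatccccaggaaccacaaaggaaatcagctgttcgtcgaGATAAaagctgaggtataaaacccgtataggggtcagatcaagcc
Prss34, plus strand, chr17:25298144-25298393: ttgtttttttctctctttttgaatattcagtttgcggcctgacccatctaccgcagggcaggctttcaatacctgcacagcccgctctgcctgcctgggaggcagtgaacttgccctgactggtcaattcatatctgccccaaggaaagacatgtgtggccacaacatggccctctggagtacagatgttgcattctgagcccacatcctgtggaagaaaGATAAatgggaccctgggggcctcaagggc
GATAA, read on both strands, stood 102 bases before the start of Mcpt4, 194 before Cma1, 45 before Cpa3 and 30 before Prss34. Of the 8 genes with an entry in the RefSeq promoter table (all but Tpsb2 and Tpsab1), 6 held it, the other two being Ms4a2 with 3 copies and Fcer1a with 1, while Kit and Hdc had none in this window; 23.02% of all 27025 promoters of this length held it. TATAAA, the TATA box letters read on both strands, was found in Mcpt4, Cpa3 and Fcer1a and in 12.97% of all promoters. CAGCTG, a palindromic E-box, was found in Cpa3 and Fcer1a and in 12.8% of all promoters. GATAG, read on both strands, was found in Cma1 and Hdc and in 20.9% of all promoters. These letters describe the sequence and do not show binding.

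Mcpt4 (gene 17227, chromosome 14, 56059744 to 56062310, mm10) encodes mast cell protease 4, the chymase of mouse connective tissue mast cells closest in activity to human chymase. It had 13, 65 and 93 counts in vehicle samples 1 to 3 and 806, 840 and 372 in STZ samples 1 to 3. The groups did not overlap, and the lowest STZ level, in CPM, was 3.9 times the highest vehicle level. The log2 fold change of STZ over vehicle was 3.44 (SE 0.616), the largest among the 10 genes, from means of 1.04 ± 0.714 and 11.3 ± 4.38 CPM (SD, n = 3 each). Vehicle sample 1 stood low, with 13 counts (95% Poisson interval 6.92 to 22.2), and without it the log2 fold change was 2.97.

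Cma1 (gene 17228, chromosome 14, 55941451 to 55944675) encodes mast cell protease 5, a chymase stored together with Cpa3. Its counts were 41, 85 and 163 in vehicle samples and 1257, 1247 and 530 in STZ samples. The groups were again apart, STZ sample 3 having 3.17 times the CPM of the highest vehicle sample. The mean level was 1.75 ± 1.04 CPM in vehicle and 17.05 ± 6.97 CPM in STZ samples, a log2 fold change of 3.28 (SE 0.515).

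Cpa3 (gene 12873, chromosome 3, 20215616 to 20242209) encodes mast cell carboxypeptidase A, which trims peptides after the chymases have cut them. It had 94, 86 and 184 counts in vehicle samples and 1338, 1325 and 463 in STZ samples. All STZ samples lay above all vehicle samples, with STZ sample 3 the lowest of its group at 2.45 times the highest vehicle CPM. Means of 2.21 ± 0.871 CPM in vehicle and 17.6 ± 8.39 CPM in STZ samples gave a log2 fold change of 2.99 (SE 0.459). The locus overlaps the annotated genes Gm31320, Mir7007 and Gm7428, and whether reads were counted by strand is not given in the sources used here.

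Tpsb2 (gene 17229, chromosome 17, 25366308 to 25368096) encodes the tryptase mast cell protease 6, a trypsin-like enzyme held as a tetramer on heparin. Counts were 182, 202 and 390 in vehicle samples and 1684, 1540 and 945 in STZ samples. It was the most abundant of the proteases in every sample, and its groups did not overlap. Its mean level was 4.7 ± 1.84 CPM in vehicle and 23.4 ± 6.4 CPM in STZ samples, a log2 fold change of 2.32 (SE 0.317).

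Tpsab1 (gene 100503895, chromosome 17, 25343245 to 25345562) is the neighbouring tryptase gene, encoding mast cell protease 7 in strains that make it, and is listed in the deposited table as a transcribed pseudogene. It had 46, 33 and 39 counts in vehicle samples and 100, 135 and 69 in STZ samples. The groups did not overlap, and the vehicle samples were close to each other. With means of 0.725 ± 0.117 and 1.71 ± 0.575 CPM, its log2 fold change of 1.24 (SE 0.319) was below that of Tpsb2. Tpsb2 and Tpsab1 are paralogs, yet no stretch of 50 bases in the annotated transcripts of either was found in transcripts of another gene, whereas 5.48% of such stretches of Mcpt4 (shared with Cma2 and Mcpt9) and 5.38% of those of Cma1 were, so a part of the reads of both chymases could be assigned to more than 1 gene.

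Prss34 (gene 328780, chromosome 17, 25298394 to 25300168) encodes mast cell protease 11, a tryptic protease found mainly in basophils. Its 3, 48 and 183 counts in vehicle samples and 67, 585 and 264 in STZ samples overlapped between the groups, vehicle sample 3 lying above STZ sample 1. Vehicle sample 1, with 3 counts, was at the limit given above (95% Poisson interval 0.619 to 8.77). Means of 1.39 ± 1.62 and 5.21 ± 4.51 CPM gave a log2 fold change of 1.9 (SE 1.1). Of the 10 genes it depended most on single samples: the log2 fold change was 3.41 without vehicle sample 3, 1.33 without vehicle sample 1 and 1.0 without STZ sample 2.

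**Figure D1:**
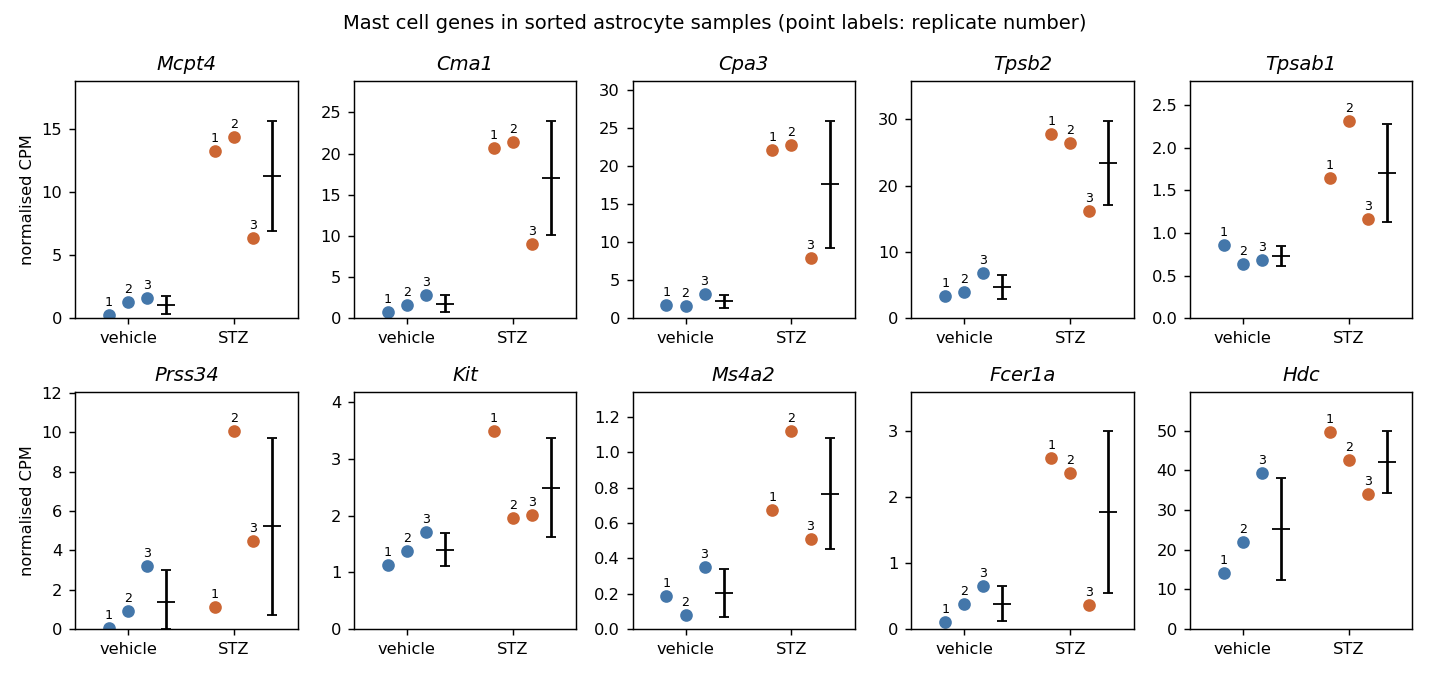
Normalised read counts (CPM, linear axes starting at 0) of the 10 genes in the 3 vehicle (blue) and 3 STZ (orange) samples, numbered by replicate; bars beside the points are the mean ± SD. All 3 STZ samples lie above all 3 vehicle samples for 7 genes, and the groups overlap for Prss34, Fcer1a and Hdc.

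Fcer1a and Ms4a2 encode the IgE-binding alpha chain and the signal-amplifying beta chain of the high-affinity IgE receptor, and Kit encodes the receptor for stem cell factor, on which mast cells depend. Fcer1a (gene 14125, chromosome 1, 173221269 to 173227232) had 6, 20 and 37 counts in vehicle samples and 157, 138 and 21 in STZ samples. STZ samples 1 and 2 were high, while STZ sample 3 lay inside the vehicle range. The log2 fold change of 2.2 (SE 0.8), from 0.381 ± 0.267 to 1.77 ± 1.23 CPM, therefore came from 2 of the 3 STZ samples.

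Ms4a2 (gene 14126, chromosome 19, 11615517 to 11623790) had 10, 4 and 20 counts in vehicle samples and 41, 65 and 30 in STZ samples. The groups did not overlap, although the vehicle counts were few (95% Poisson interval 1.09 to 10.2 for the lowest). Its log2 fold change was 1.88 (SE 0.532), from 0.204 ± 0.137 to 0.767 ± 0.313 CPM. The ratio of Fcer1a to Ms4a2 counts ranged from 0.6 to 5.0 in vehicle samples and from 0.7 to 3.83 in STZ samples, so the receptor chains did not keep a fixed proportion.

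Kit (gene 16590, chromosome 5, 75574987 to 75656722) had 60, 71 and 98 counts in vehicle samples and 212, 114 and 118 in STZ samples. All STZ samples lay above all vehicle samples, but the lowest STZ level was only 1.14 times the highest vehicle level in CPM. The log2 fold change was 0.83 (SE 0.314), from 1.4 ± 0.297 to 2.49 ± 0.873 CPM, and was 0.5 without STZ sample 1. Kit is also expressed by some neurons and other brain cells.

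Hdc (gene 15186, chromosome 2, 126593659 to 126624025) encodes histidine decarboxylase, the enzyme that makes histamine, and is expressed by mast cells, basophils, immature myeloid cells and histaminergic neurons. Its counts were 761, 1138 and 2256 in vehicle samples and 3011, 2478 and 2006 in STZ samples. It had the highest counts of the 10 genes in every sample, and the groups overlapped because vehicle sample 3 exceeded STZ sample 3. The log2 fold change was 0.74 (SE 0.338), the smallest of the 10, from 25.2 ± 12.9 to 42.1 ± 7.76 CPM, and was 1.21 without vehicle sample 3.

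Across the 10 genes, all STZ samples were above all vehicle samples for 7, where 8.64% of all 22337 genes tested had this order. The median log2 fold change of the 10 was 2.05, beside 0.0121 over all genes tested. With calls made below an adjusted p of 0.05 and beyond a 1.5-fold change, the quasi-likelihood test of edgeR called 0 of the 10, where it called 0.0224% of all genes, and DESeq2 called 4 (Mcpt4, Cma1, Cpa3 and Tpsb2), where it called 1.05% of all genes and 0.654% as higher in STZ. Leaving out 1 sample in turn, DESeq2 called between 3 and 7 of the 10: Mcpt4 was lost without STZ sample 1 or STZ sample 2, and Ms4a2, Fcer1a and Hdc were added without vehicle sample 3, and Tpsab1 and Fcer1a without STZ sample 3. Since these values chose the genes, the counts describe the choice and nothing is read from them. In bulk samples, a different number of cells of a type and a different amount of RNA per cell cannot be told apart.

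The samples of a group were spread in a similar way for most of the genes. The highest sample was STZ 1 for 4 genes and STZ 2 for 6, and the lowest was vehicle 1 for 7 and vehicle 2 for 3. Within the STZ group, sample 3 was the lowest for 8 genes, the exceptions being Prss34 and Kit. Within the vehicle group, sample 3 was the highest for 9 genes, the exception being Tpsab1. The 6 proteases together had 379, 519 and 1052 counts in vehicle samples and 5252, 5672 and 2643 counts in STZ samples, or 7.07 to 18.4 CPM and 44.97 to 97.4 CPM. The lowest STZ sample was thus 2.45 times the highest vehicle sample, and the difference of the means was 64.5 CPM.

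**Figure D2:**
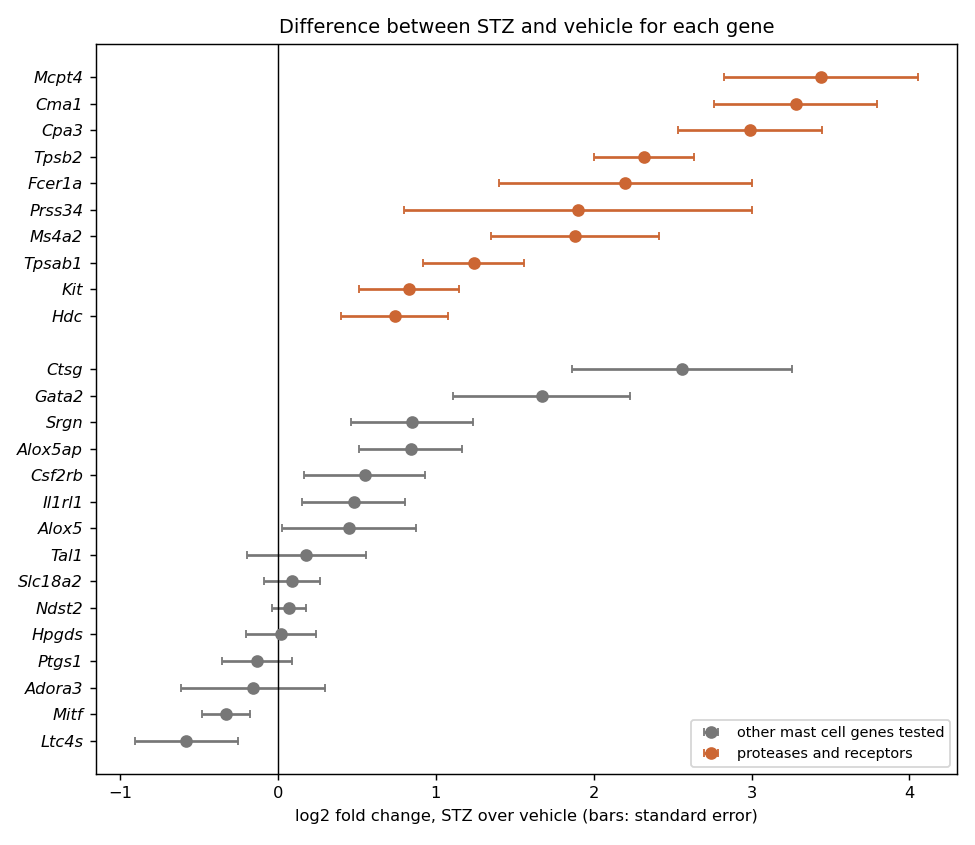
Log2 fold change of STZ over vehicle (edgeR, bars are 1 standard error) for the 10 mast cell proteases and receptors with Hdc (orange) and for the 15 other mast cell genes with counts in every sample (grey). The 10 genes lie between 0.74 and 3.44, and the other 15 between -0.58 and 2.56.

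Within a library, the count of a gene relative to Cma1 does not depend on depth or scaling. The ratio of Mcpt4 to Cma1 was 0.641, 0.674 and 0.702 in the STZ samples, a 1.09-fold span, although the level of each gene differed more than 2-fold among these samples. In vehicle samples, where counts were lower, it was 0.317, 0.765 and 0.571. The ratio of Cpa3 to Cma1 was 1.06, 1.06 and 0.874 in STZ samples and 2.29, 1.01 and 1.13 in vehicle samples. Vehicle sample 1 lay apart for both ratios, and it is set aside here only after its values were seen. Without it, the ratio of Mcpt4 lay between 0.571 and 0.765 in the remaining samples of both groups. That of Cpa3 lay between 0.874 and 1.13.

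The other genes were not in a fixed proportion to Cma1. Tpsb2 had 4.44, 2.38 and 2.39 counts per Cma1 count in vehicle samples and 1.34, 1.23 and 1.78 in STZ samples, and it made up 37.1% to 48.0% of the counts of the 6 proteases in vehicle samples and 27.2% to 35.8% in STZ samples. Hdc had 13.4 to 18.6 counts per Cma1 count in vehicle samples and 1.99 to 3.78 in STZ samples, and Kit 0.601 to 1.46 and 0.0914 to 0.223. These ratios did not overlap between the groups. Cma1 itself was chosen with its values known, and its mean CPM was 9.75 times as high in STZ samples. Lower ratios in STZ samples thus follow for genes that differed less, and nothing further is read from them. Prss34 varied within the groups: it had 0.0533, 0.469 and 0.498 counts per Cma1 count in STZ samples, a 9.35-fold span, and 0.0732, 0.565 and 1.12 in vehicle samples. It took 0.792% of the protease counts in vehicle sample 1 and 1.28% in STZ sample 1, beside 9.25% to 17.4% in the other samples.

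**Figure D3:**
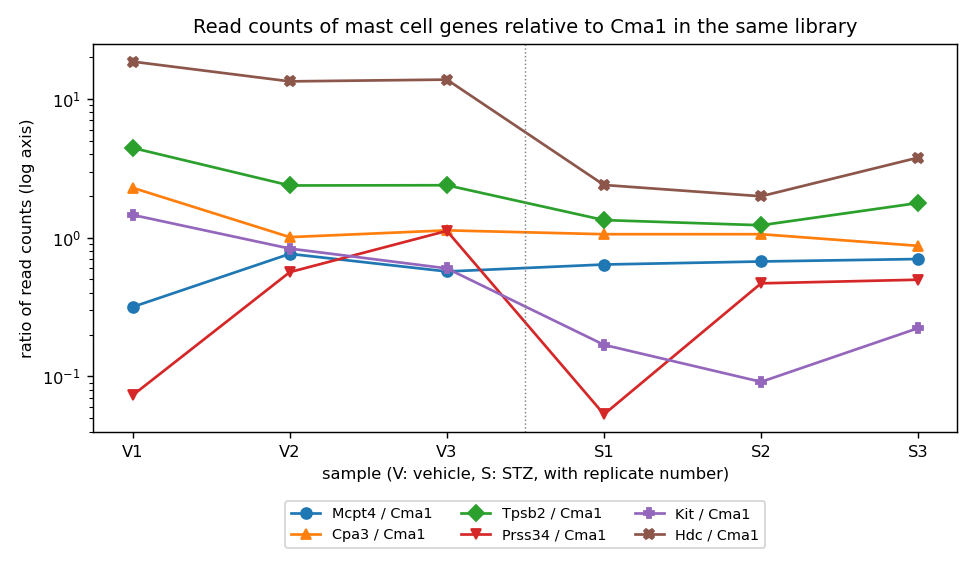
Read counts of 6 mast cell genes divided by the count of Cma1 in the same library (log axis; V, vehicle; S, STZ; numbers are replicates, and lines only join the points of a gene). Mcpt4 and Cpa3 stay near Cma1 in the STZ samples (0.641 to 1.06), Hdc, Tpsb2 and Kit have lower ratios in STZ than in vehicle samples, and Prss34 is low in vehicle sample 1 and STZ sample 1.

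The chymase genes lie in a cluster on chromosome 14 (55941451 to 56085499), in which 10 genes are listed. Of these, 5 never reached 10 counts in a sample. Mcpt9 had at most 2 counts. Of the mucosal mast cell protease genes, Mcpt1 had at most 4 counts. Mcpt2, the other, had 37, 12 and 0 counts in vehicle samples and 9, 28 and 59 in STZ samples, with overlapping groups. Besides Mcpt4 and Cma1, the pseudogene Mcpt-ps1, next to Cma1, was higher in all STZ samples, with 3, 8 and 5 counts beside 0 in each vehicle sample. Of all genes left out for a count of 0 in some sample, 3.29% had this order. The counts of Mcpt-ps1 were close to the limit of 3 counts, and it was named after its values were seen. The tryptase genes lie together on chromosome 17 (25298394 to 25368096), where Prss28 and Prss29, between Prss34 and Tpsab1, had 0 counts in all 6 samples.

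Of 24 other genes linked to mast cells, 15 had counts in every sample and were tested, and edgeR called 0 of them (3, all higher in STZ, had an unadjusted p below 0.05, as had 11.3% of all genes). DESeq2 called 1 of the 15, Ctsg, where it called 1.05% of all genes and 0.654% as higher in STZ. Their median log2 fold change was 0.18, with 11 positive and 4 negative. Ctsg encodes cathepsin G, a chymase-like protease of mast cells and also of neutrophil precursors, and had 12, 9 and 58 counts in vehicle samples and 255, 163 and 83 in STZ samples. It was the 1 gene of these 15 with all STZ samples above all vehicle samples, beside 8.64% of all genes. The log2 fold change of Ctsg was 2.56 (SE 0.697, adjusted p = 0.301 by edgeR and 0.0037 by DESeq2). Gata2, a transcription factor required for mast cells and for blood progenitors, had 62, 82 and 232 counts in vehicle samples and 663, 422 and 202 in STZ samples, with a log2 fold change of 1.67 (SE 0.561; edgeR adjusted p = 0.357) and overlapping groups. Srgn, which encodes the granule proteoglycan serglycin, had a log2 fold change of 0.85 (SE 0.385; edgeR adjusted p = 0.465). Ndst2, an enzyme of heparin synthesis, differed by 0.07 and Ptgs1, cyclooxygenase 1, by -0.13. Mitf, a transcription factor of mast cells that astrocytes and microglia can also express, differed by -0.33 (edgeR adjusted p = 0.474) and Ltc4s, leukotriene C4 synthase, by -0.58 (edgeR adjusted p = 0.537).

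The other 9 of these 24 genes had 0 counts in some sample and were not tested. Among them, 5 had all STZ samples above all vehicle samples, and they are named here after their values were seen. Of all genes left out for a count of 0, 3.29% had this order. That share includes genes with 0 counts in an STZ sample, which cannot have this order. The 5 named genes had their 0 in a vehicle sample, so the share is not a like comparison for them. Mrgprb2, the receptor through which basic peptides and drugs activate connective tissue mast cells, had 7, 0 and 3 counts in vehicle samples and 48, 57 and 21 in STZ samples. Mrgprb1, a related receptor, had 23, 0 and 21 beside 74, 119 and 65. Tph1, the enzyme of serotonin synthesis outside the brain, had 0, 7 and 15 beside 41, 47 and 28. These sets of 3 did not overlap, although most vehicle values were few reads. Gata1, a transcription factor of mast and red cell lineages, had 0, 3 and 4 beside 21, 15 and 12, and Tpsg1, a membrane-anchored tryptase, had 6, 0 and 12 beside 24, 17 and 21.

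Basophil genes were low in all samples. Mcpt8, a basophil granule protease, had 0, 35 and 66 counts in vehicle samples and 21, 93 and 60 in STZ samples, and Cd200r3, a receptor of basophils and mast cells, had 16, 7 and 14 beside 14, 48 and 18. Ccr3 and Il4 had at most 9 counts in any sample. The summed level of these 4 genes was 0.41, 0.982 and 1.48 CPM in vehicle samples and 0.725, 2.49 and 1.46 CPM in STZ samples, and the groups overlapped. Like Prss34, Mcpt8 was lowest in vehicle sample 1 and, within the STZ group, in STZ sample 1. Cd200r3 was also lowest in STZ sample 1 of its group, but within the vehicle group it was highest in sample 1. Ccr3 and Il4 had too few counts to be compared in this way.

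The signalling chain behind the IgE receptor and Kit is shared with other myeloid cells. Of its 12 genes tested, edgeR and DESeq2 each called 0 (0 at an unadjusted p under 0.05 in edgeR), and the median log2 fold change was 0.28. Fcer1g, the gamma chain that the IgE receptor shares with other Fc receptors, had a mean of 33.5 ± 11.1 CPM in vehicle and 51.99 ± 24.1 CPM in STZ samples, a log2 fold change of 0.63 (SE 0.347; edgeR adjusted p = 0.528). Btk, a kinase of myeloid and B cells, had a log2 fold change of 0.56 (SE 0.286, edgeR adjusted p = 0.505). It was the 1 gene of these 12 with all STZ samples above all vehicle samples, beside 8.64% of all genes. The kinases Lyn and Fyn differed by 0.27 and -0.15, and the phospholipase Plcg1 by -0.11.

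Of 8 genes for the handling of histamine, 6 had counts in every sample and were tested one by one. Neither tool called any of them (3 had an unadjusted p below 0.05 in edgeR, as had 11.3% of all genes). Hrh1, the H1 receptor and in FPKM the most abundant histamine receptor in these samples, had 150.8 ± 8.67 CPM in vehicle and 115.7 ± 17.2 CPM in STZ samples, and all STZ samples lay below all vehicle samples, as for 9.85% of all genes (log2 fold change -0.38, SE 0.111, edgeR adjusted p = 0.313). Hrh2, the H2 receptor, was at 0.782 ± 0.119 and 1.42 ± 0.249 CPM (log2 fold change 0.86, SE 0.261, edgeR adjusted p = 0.328). The transporter gene Slc22a3 had at most 12 counts and a log2 fold change of 0.96 (SE 0.344, edgeR adjusted p = 0.391). For Hrh2 and Slc22a3 all STZ samples lay above all vehicle samples, as for 8.64% of all genes. Hnmt, which encodes the histamine-degrading methyltransferase of brain, differed by 0.14, the vesicular transporter gene Slc18a2 by 0.09 and Hrh3 by -0.18. Of the untested genes, Hrh4 had at most 5 counts in a sample, and Aoc1, which encodes another histamine-degrading enzyme, had 0, 7 and 41 counts in vehicle and 54, 67 and 61 in STZ samples.

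Ligands and substrates of mast cell products were expressed at very different levels. Kitl, which encodes the ligand of Kit, had 3.28 ± 0.532 CPM in vehicle and 4.74 ± 1.36 CPM in STZ samples (log2 fold change 0.53, SE 0.259, edgeR adjusted p = 0.49). Il33, an alarmin that activates mast cells, was at 118.3 ± 21.3 and 105.2 ± 7.42 CPM (edgeR adjusted p = 0.646). Agt, angiotensinogen, the precursor of the peptide that chymases convert, was at 2228.1 ± 315.3 and 3145.5 ± 345.3 CPM (log2 fold change 0.5, SE 0.139). All its STZ samples lay above all its vehicle samples, as for 8.64% of all genes. Agt was not called, since the adjusted p was 0.302 by edgeR, and by DESeq2 it was 0.0282 with a fold change under 1.5. F2rl1, the receptor cut by tryptase, had 0 counts in all 6 samples, which allows at most 0.0571 CPM.

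Markers of other cell types also differed between these samples. The summed level of 8 neutrophil genes was 174.9, 170.3 and 979.5 CPM in vehicle samples and 1135.5, 1283.4 and 549.0 CPM in STZ samples. As with the proteases, vehicle sample 3 was the highest of its group and STZ sample 3 the lowest of its group, but here the groups overlapped. All 8 had positive log2 fold changes with a median of 1.3, neither edgeR nor DESeq2 called any of them (1 had an unadjusted p below 0.05 in edgeR, as had 11.3% of all genes), and none was at 0. The 5 endothelial genes summed to 29.01, 40.7 and 100.8 CPM in vehicle and 178.9, 136.1 and 89.3 CPM in STZ samples (5 of 5 positive, median log2 fold change 1.26, 0 called by either tool, 4 with an unadjusted p below 0.05 in edgeR, beside 11.3% of all genes). The 6 mural genes summed to 108.2 to 127.1 CPM in vehicle and 140.6 to 177.9 CPM in STZ samples. Of these, edgeR called 0 (4 had an unadjusted p below 0.05, beside 11.3% of all genes) and DESeq2 called 4 as higher in STZ, beside 0.654% of all genes. These were the smooth muscle genes Acta2, Myh11 and Tagln and the pericyte gene Rgs5, which are named after their values were seen. The other mural genes, Pdgfrb and Kcnj8, were not called, with log2 fold changes of -0.08 and 0.5 and overlapping groups. The part of these cell types in the mast cell gene differences was not tested.

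Values of the other lists were as follows. The 6 lymphocyte genes summed to 2.66 to 8.72 CPM in vehicle and 1.15 to 2.43 CPM in STZ samples. All 4 that were tested had negative log2 fold changes, 3 with an unadjusted p below 0.05 in edgeR, beside 11.3% of all genes. Of these 4, edgeR called 0, while DESeq2 called 1 as lower in STZ, the B cell gene Cd79a (DESeq2 adjusted p = 0.0133), where it called 1.05% of all genes in either direction. The 5 border macrophage genes overlapped in sum (29.5 to 58.1 and 26.1 to 66.1 CPM). Of these 5, 4 had negative log2 fold changes, 3 of them with an unadjusted p below 0.05 in edgeR, beside 11.3% of all genes. F13a1 was the exception (log2 fold change 0.73) and had the highest mean CPM of the 5 in both groups. For Mrc1 and Cd163 all STZ samples lay below all vehicle samples, as for 9.85% of all genes. Of the 5, edgeR called 0 and DESeq2 called 1 as lower in STZ, Mrc1 (DESeq2 adjusted p = 0.0329), beside 1.05% of all genes in either direction. The 5 microglia genes overlapped as well (443.4 to 676.0 and 455.6 to 596.0 CPM). The 6 choroid plexus genes, whose cells adjoin a site of brain mast cells, were at 6015.1, 16754.5 and 17691.4 CPM in vehicle and 11095.6, 9098.4 and 15715.4 CPM in STZ samples. Vehicle sample 1 was low for both choroid plexus genes and proteases, but among STZ samples the order was opposite, sample 3 being the highest for choroid plexus and the lowest for proteases. The 6 fibroblast genes were at 53.7, 66.5 and 81.2 CPM in vehicle and 79.1, 85.8 and 59.99 CPM in STZ samples, with overlapping groups, a median log2 fold change of 0.0 and the same order of samples within each group as the summed proteases. The melanocyte genes Tyr and Mlana, whose cells also depend on Kit, had at most 4 and 3 counts, and the 5 melanocyte genes summed to 8.13 to 11.1 and 7.86 to 8.29 CPM. The 5 neuron genes (19.9 to 26.5 and 17.3 to 34.2 CPM) and the 4 oligodendrocyte genes (632.1 to 1945.1 and 655.4 to 2357.1 CPM) overlapped between the groups.

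**Figure D4:**
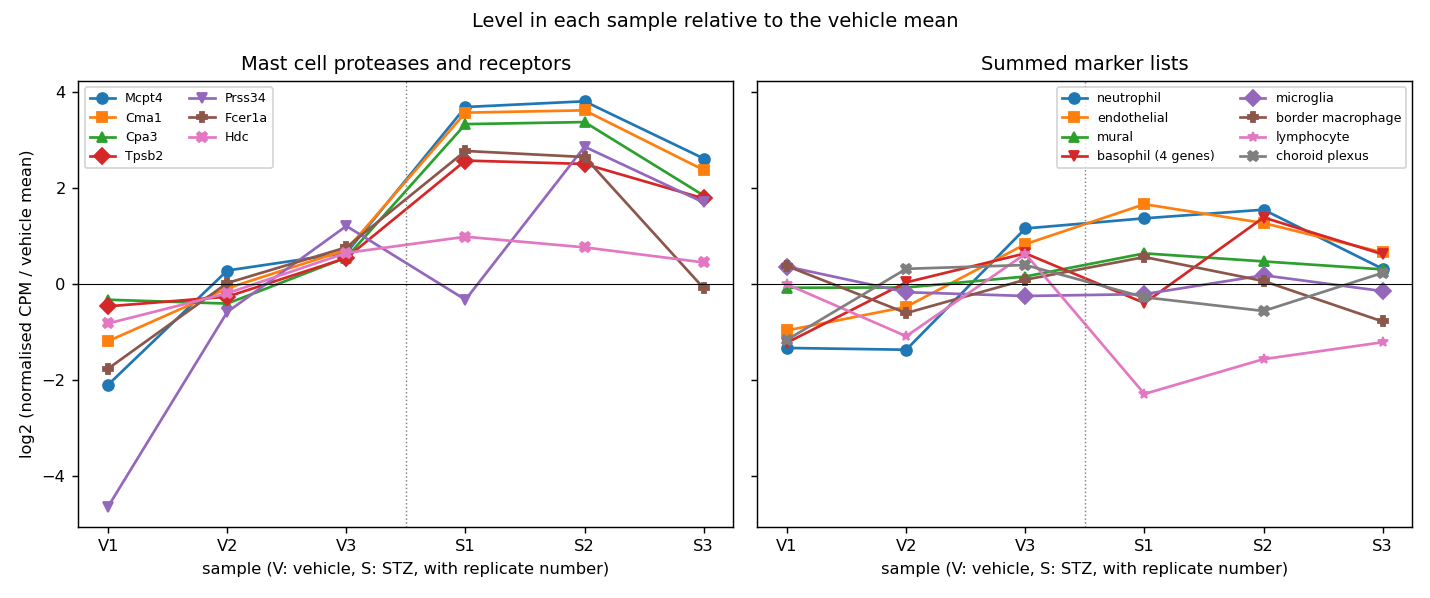
Log2 of the normalised CPM divided by the vehicle mean in each sample (V, vehicle; S, STZ; numbers are replicates, and lines only join the points of a gene or list) for 7 of the mast cell genes (left) and for summed marker lists of other cell types (right). Mcpt4, Cma1, Cpa3 and Tpsb2 rank STZ 3 below STZ 1 and STZ 2, and the neutrophil and endothelial lists have the same order within the STZ group with a high vehicle sample 3.

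Over the 6 samples, the 5 genes whose log2 CPM followed that of the summed proteases most closely were Pnpla2 (Pearson r = 0.996), which encodes adipose triglyceride lipase, Myzap (0.991), Prg4 (0.991), which encodes lubricin, Prdx4 (0.99), a peroxiredoxin, and Gm38872 (0.989). Prg4 had 104, 123 and 279 counts in vehicle samples and 709, 737 and 497 in STZ samples. Pnpla2 moved far less, with 6194, 6220 and 7355 counts in vehicle samples and 9409, 8855 and 8425 in STZ samples. Of 22327 genes compared, 24 reached 0.98, 138 reached 0.95 and 585 reached 0.9. They are descriptions over 6 libraries that share their depth and grouping.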

How the data were processed

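RNA sequencing of tdTomato-positive cells sorted from the brain was analysed for 3 vehicle and 3 STZ samples, each pooled from 3 brains. The sample labels gave the groups and replicate numbers. The labels name polyA RNA and a SMART-Seq kit, and the study's methods also name a TruSeq kit. Per the submitters' processing notes, the authors trimmed reads with Trimmomatic 0.38, aligned them to mm10 with HISAT2 2.1.0 and quantified genes with StringTie 2.1.3b. The annotation, the read length and any use of strand in counting are not given in the sources used here. Per gene, the deposited table holds raw read counts as whole numbers. Its FPKM were computed by the authors as fragments scaled to transcript length and depth, and its TPM, likewise deposited by the authors, add up to the same total in each sample. Columns of the authors' own comparisons were not used.

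Total counts ranged from 52529048 to 58749115 per sample. Of 45777 genes, 32431 had a count in any sample and 22337 had at least 1 count in every sample, the filter the study's methods state. The main test was the two-sided quasi-likelihood test of edgeR 4.0.16 (R 4.3.3) on TMM-scaled counts, with a model of the group alone, a prior count of 0.125 and p-values adjusted by Benjamini-Hochberg. Calls needed an adjusted p below 0.05 and more than a 1.5-fold change. DESeq2 1.42.0, the study's tool, was the main alternative. CPM are TMM-normalised. Likeness between genes was measured by Pearson's r of log2(CPM + 0.04), and replicate pairing on log2 CPM to which 2 prior counts were added. The samples are pools of separate mice, so p-values measure the spread between pools. Intervals of counts are exact Poisson intervals at 95%. Promoter sequences are from RefSeq, matched by symbol for 8 of the 10 genes, and shared 50-base stretches were searched in GENCODE transcripts. The fit was tested on simulated data. Tables were made with Python 3.11.15, pandas 2.3.3, numpy 2.4.6 and scipy 1.17.1.

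The 10 genes, the gene lists and the cell type markers were chosen with earlier results of these data known. Named in the text are the 10 genes, genes of each pathway list that were called, the 3 with the highest mean level, the 2 largest and 2 smallest log2 fold changes, genes at or near 0, cell type markers that bear on a result, and the 5 genes most alike to the summed proteases. Tpsg1, Tph1, Gata1, Mrgprb1, Mrgprb2, Mcpt-ps1, Prss28, Prss29, Aoc1, Ttr, Cd79a, Mrc1, Cd163, F13a1 and the mural genes were named after their values were seen.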

Additional observations from a re-analysis of the deposited data

How the results depend on the processing

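The log2 fold changes of the 10 genes kept their sign under all 120 alternative values computed (DESeq2, edgeR scaled by the size factors of DESeq2, low counts unfiltered or filtered by filterByExpr, the replicate block, a prior count of 2, and single samples left out), between 0.45 and 3.92. The calls depended on the tool. edgeR called 0 of the 10 genes under every edgeR alternative, including each sample left out, while DESeq2 called 4. Leaving out samples under DESeq2, an alternative added after seeing the data, gave 4 calls without vehicle replicate 1 or 2, 7 without vehicle replicate 3, 3 without STZ replicate 1 or 2 and 6 without STZ replicate 3. Over all genes, edgeR called 5, DESeq2 called 234, and edgeR called between 0 and 1 without any 1 sample. Of the other mast cell genes, DESeq2 called 1 and edgeR 0. The cause was not tested. The difference in summed protease level was 64.5 CPM, between 54.0 and 80.2 CPM with a sample left out (54.0 without STZ replicate 2 and 80.2 without STZ replicate 3) and 45.8 CPM without Tpsb2. In the authors' TPM, which divide by gene length and so are another unit, it was 124.2.

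Under the replicate block, 0 genes of the whole table and 0 of the 10 genes were called by edgeR, and the difference in summed protease level was 64.5 CPM. The numbers were not taken to pair the samples: deviations of same-numbered samples from their group means had correlations of -0.101, -0.162 and -0.184, beside -0.0202 to 0.158 for other pairs, and no sample correlated best with its own number.

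Among the 10 genes, Ms4a2, Fcer1a and Prss34 had counts under 10 in some samples, as had the basophil genes and several of the other mast cell and histamine genes, so counting error is large for them. With 3 pools a group, scaling moved the median log2 fold change of all genes between 0.00764 and 0.0677.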
